A study of Canis lupus familiaris with 34 samples.

Results

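The 10 genes described here, SOX9, RUNX2, CHAD, COMP, CILP, CNMD, SPP1, IBSP, ALPL and MGP, belong to the programmes that build cartilage and bone, and their RNA was followed in the mitral valve of 34 dogs. They were chosen by symbol as genes with a known place in those programmes, and each was read from the canine RefSeq feature where one is listed (SOX9 and ALPL) and otherwise from the mapped human RefSeq feature (the other 8 genes). The count table lists 23768 features, of which 19568 reached 100 counts over all dogs and were tested; all 10 genes were among them.

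The valves came from privately owned Cavalier King Charles Spaniels of about 10 years, a breed with a high rate of myxomatous mitral valve disease (MMVD), in which the leaflets thicken and lose their ordered matrix. The 10y-noCHF group held 19 dogs without congestive heart failure (10 females and 9 males), from 1 dog without structural heart disease to dogs with preclinical MMVD. The 10y-MMVD-CHF group held 15 dogs with MMVD and congestive heart failure (6 females and 9 males). The control group is therefore not a group of healthy valves, and the labels do not pair single dogs with a disease stage or treatment. Poly-A RNA of whole valve tissue was sequenced, and between 46185256 and 82361245 counts were assigned per dog.

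Valve interstitial cells are fibroblast-like cells that make the collagens and proteoglycans of the leaflet. SOX9 is the transcription factor that starts cartilage formation and keeps heart valve precursors in a matrix-producing state, and RUNX2 is its counterpart in bone. CHAD, COMP, CILP and CNMD are proteins of cartilage and tendon, SPP1, IBSP and ALPL serve bone matrix and its mineralization, and MGP is a secreted inhibitor of soft tissue calcification.

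The tissue carried markers of valve interstitial cells, endothelium and macrophages, and those of heart muscle in widely differing amounts. The paper states that heart muscle fibres are present in the canine mitral valve itself. Whether the heart muscle RNA came from the leaflet or from adjoining tissue was not tested. All 8 markers of valve interstitial cells were detected, with a mean level of 9.23 to 10.2 on the log2(CPM + 1) scale (CPM, counts scaled to the TMM-adjusted library size), and all 10 markers of endothelium lay at a mean of 4.87 to 5.97. The mean of 19 cardiomyocyte markers ran from 1.41 to 9.52 in 10y-noCHF dogs and from 1.85 to 10.4 in 10y-MMVD-CHF dogs, and that of 10 macrophage markers from 5.33 to 7.11 and from 5.64 to 7.08; no marker on these 4 lists was at 0 in every dog. In bulk tissue, fewer cells of a type and less RNA per cell cannot be told apart. Dog CAV1047 had the highest cardiomyocyte mean and dog CAV614 the highest mean of red blood cell markers, so results were also computed without both.

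**Figure D1:**
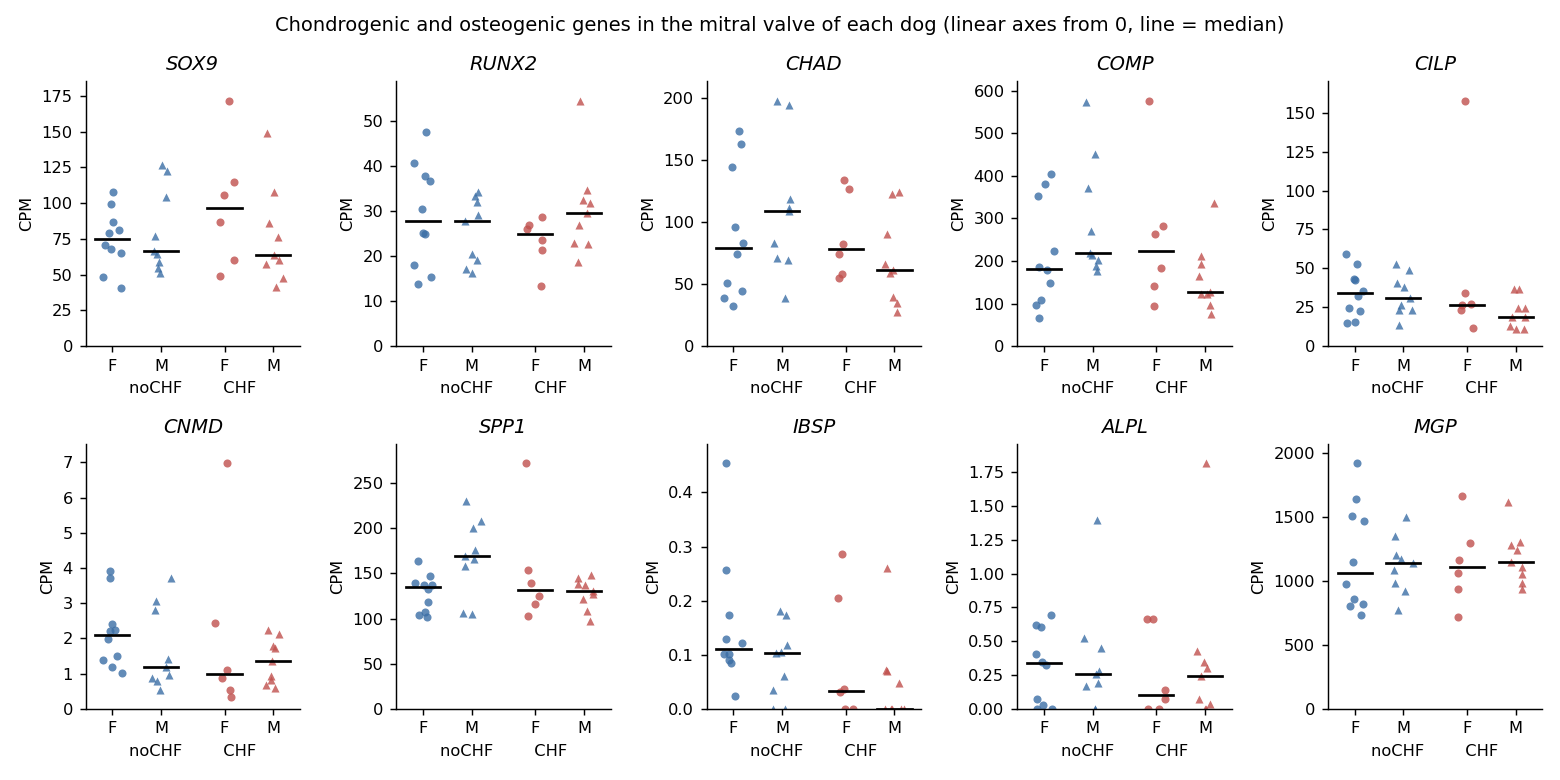
Level of each gene in each dog in CPM (linear axes from 0), for females (circles) and males (triangles) of the 10y-noCHF group (blue) and the 10y-MMVD-CHF group (red), with a line at the median. The groups overlap for all 10 genes, and single dogs stand high for CILP, CNMD and ALPL.

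SOX9 was expressed in every valve. On chr9:8722827-8725975 of canFam4 it held 1906 to 11339 counts per dog. Its level lay between 40.5 and 127 CPM in 10y-noCHF dogs, with a median of 70.7, and between 41.5 and 172 CPM in 10y-MMVD-CHF dogs, with a median of 76.1. The lowest dogs of the groups lay close together, while the highest dog, CAV1196, was a female with heart failure. The log2 fold change (10y-MMVD-CHF over 10y-noCHF, with sex in the model) was 0.14 ± 0.18 (SE), with a 95% interval of -0.23 to 0.51 (edgeR, p = 0.441, adjusted p = 0.951). It was 0.03 without CAV1196 (p = 0.871) and 0.20 without CAV1939, the highest dog of the 10y-noCHF group (p = 0.261). The SOX9 counts fell on exons of a canine gene, where SOX9 reached a median of 47.5 CPM per kilobase of feature; ALPL, the other gene read from exons, reached 0.083 CPM per kilobase. The mapped human features include introns, so levels per length were not set side by side for the other genes.

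RUNX2, on chr12:13825245-14045190, lay at 13.8 to 47.4 CPM in the 10y-noCHF group (median 27.7) and at 13.3 to 54.4 CPM in the 10y-MMVD-CHF group (median 26.8). The dog with the most, CAV614, and the dog with the least, CAV1047, both had heart failure, and the groups covered the same range. The log2 fold change was 0.00 ± 0.17 (95% interval -0.34 to 0.35, edgeR adjusted p = 0.999). The canine RefSeq gene reaches to position 14151515, past the end of the feature read here. Reads wholly beyond that end were not counted for RUNX2. The RUNX2 feature shares part of its range with SUPT3H on the opposite strand, and reads were counted without regard to strand and to every feature they touched. SUPT3H held 32555 counts over all dogs against 58635 for RUNX2, so at most 55.5% of the RUNX2 counts could be shared.

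CHAD encodes chondroadherin, a leucine-rich protein of cartilage that binds collagen and cells. Its level ran from 32.6 to 198 CPM in 10y-noCHF dogs (median 83.5) and from 27.9 to 134 CPM in 10y-MMVD-CHF dogs (median 66.2). The 2 highest values, 198 and 195 CPM, came from the 10y-noCHF group, and only 5 of 15 dogs with heart failure lay above the 10y-noCHF median. The means were 99.8 ± 53.2 (SD, n = 19) and 77.0 ± 35.2 CPM (SD, n = 15), a log2 fold change of -0.37 ± 0.25 that the spread between dogs covered (95% interval -0.89 to 0.14, edgeR p = 0.149, adjusted p = 0.863). Of the 10 genes, CHAD had the smallest p in this comparison, at rank 3375 of the 19568 features. CHAD (chr9:26348574-26352570) lies inside ACSF2, which is on the opposite strand. There were 47.7 counts per base in the CHAD range and 2.41 per base in the rest of ACSF2, a density that would account for 5.06% of the CHAD counts over all dogs, and for 2.75% to 11.02% in single dogs.

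COMP, the cartilage oligomeric matrix protein, organizes collagen fibrils. It lay at 67.1 to 574 CPM in the 10y-noCHF group (median 215) and at 75.1 to 577 CPM in the 10y-MMVD-CHF group (median 165). The highest dogs were CAV1876 with heart failure and CAV444 without it; the next dog reached 336 CPM in the 10y-MMVD-CHF group and 452 CPM in the 10y-noCHF group, and the ranges were nearly the same. Means of 254 ± 134 (SD, n = 19) and 199 ± 129 CPM (SD, n = 15) gave a log2 fold change of -0.35 ± 0.27 (95% interval -0.90 to 0.20, edgeR adjusted p = 0.887). Without CAV1876 the log2 fold change was -0.57 (p = 0.030, adjusted p = 0.730), and without CAV444 it was -0.24 (p = 0.354).

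CILP encodes cartilage intermediate layer protein. It lay at 13.5 to 59.4 CPM in 10y-noCHF dogs (median 32.2) and, apart from CAV1876, at 10.7 to 36.9 CPM in 10y-MMVD-CHF dogs, whose median was 24.3. CAV1876 alone reached 158 CPM. The log2 fold change was -0.12 ± 0.28 (edgeR adjusted p = 0.972) with this dog and -0.56 without it (p = 0.014, adjusted p = 0.607), whereas it was -0.05 without CAV901 of the 10y-noCHF group (p = 0.863). Of the 15 dogs with heart failure, 4 exceeded the 10y-noCHF median.

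CNMD encodes chondromodulin, an inhibitor of vessel growth made by cartilage and by avascular valve tissue. It was low, at 0.52 to 3.91 CPM in 10y-noCHF dogs (median 1.498) and 0.33 to 6.97 CPM in 10y-MMVD-CHF dogs (median 1.09). The highest dog, with 272 counts, was CAV1047, and the next dog of its group reached 2.43 CPM. The log2 fold change was -0.22 ± 0.33 (95% interval -0.88 to 0.44, edgeR adjusted p = 0.955), and it was -0.62 without CAV1047 (p = 0.049, adjusted p = 0.688) but -0.10 without CAV749 of the 10y-noCHF group (p = 0.771).

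Of the bone matrix genes, SPP1 was well expressed and IBSP was close to the limit of detection. SPP1 encodes osteopontin, a phosphoprotein made by bone cells and by activated macrophages. Its level was 102 to 230 CPM in the 10y-noCHF group (median 139) and 97.2 to 272 CPM in the 10y-MMVD-CHF group (median 131), with CAV1876 highest and the other 14 dogs with heart failure at 154 CPM or below. The log2 fold change was -0.11 ± 0.12 (95% interval -0.36 to 0.14, edgeR adjusted p = 0.945), and it was -0.23 without CAV1876 (p = 0.025, adjusted p = 0.704) but -0.06 without CAV444 of the 10y-noCHF group (p = 0.602).

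IBSP, bone sialoprotein, lies on the same chromosome as SPP1 (chr32:28790275-28803869, with SPP1 at chr32:28630414-28638590) and held 198 counts in all 34 dogs together. Of the 10y-noCHF dogs, 17 of 19 had counts, at a median of 0.103 CPM and up to 0.454 CPM. Of the 10y-MMVD-CHF dogs, 8 of 15 had counts, at a median of 0.030 CPM and up to 0.286 CPM. A level of 3 counts is 0.036 to 0.065 CPM depending on the library. All counts were even numbers, as both mates of a read pair were counted, so the number of fragments was smaller still. Counts were thus not independent, and the level that dogs at 0 could have held reaches above that of 3 counts. The log2 fold change of -0.73 ± 0.64 had a 95% interval from -2.02 to 0.57 (edgeR p = 0.262, adjusted p = 0.915). A permutation test of ranks within sex gave p = 0.064, and voom gave -1.36 (p = 0.033, adjusted p = 0.450). Without CAV648, which held 18 of the 60 counts of the 10y-MMVD-CHF group, the edgeR value was -1.21 (p = 0.063, adjusted p = 0.909).

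ALPL, tissue-nonspecific alkaline phosphatase, releases phosphate from pyrophosphate and is required for bone mineral. It was low as well, with 649 counts over all dogs and 8 dogs at 0. The 10y-noCHF dogs ranged up to 1.40 CPM (median 0.282) and the 10y-MMVD-CHF dogs up to 1.82 CPM (median 0.137). No difference between the groups was detectable with these few counts and this spread between dogs, with a log2 fold change of -0.13 ± 0.74 and a 95% interval of -1.64 to 1.37 (edgeR adjusted p = 0.989). The value was 0.19 without CAV865, the 10y-noCHF dog with the most, and -0.66 without CAV373, the 10y-MMVD-CHF dog with the most.

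MGP, matrix Gla protein, took 0.117% of all counts. It lay at 730 to 1919 CPM in 10y-noCHF dogs, with a median of 1139, and at 717 to 1663 CPM in 10y-MMVD-CHF dogs, with a median of 1150. The means of 1157 ± 331 (SD, n = 19) and 1167 ± 250 CPM (SD, n = 15) were almost equal, and the log2 fold change was 0.01 ± 0.13. Its 95% interval of -0.24 to 0.27 was, with that of SPP1, the narrowest of the 10 genes (edgeR adjusted p = 0.993).

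**Figure D2:**
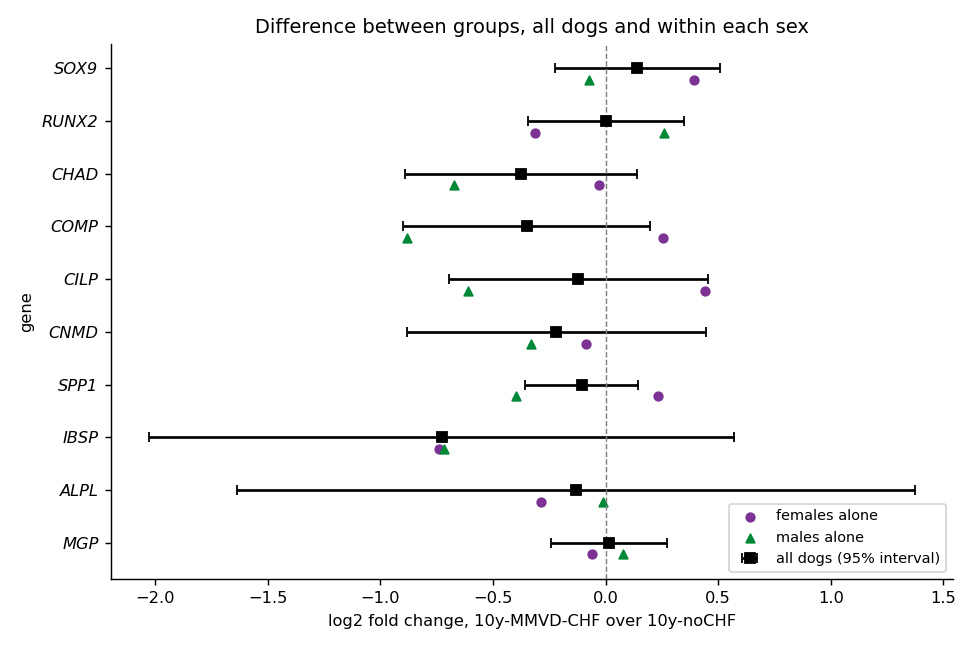
Log2 fold change of each gene, 10y-MMVD-CHF over 10y-noCHF, over all dogs with its 95% interval (squares) and within females (circles) and males (triangles) alone. Each interval over all dogs includes 0, and the values of the sexes lie on opposite sides of 0 for SOX9, SPP1, COMP and CILP (higher in females) and for RUNX2 and MGP (higher in males).

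Over the 10 genes, 0 were called at an adjusted p under 0.1 (edgeR) and 0 had an unadjusted p under 0.05. Over all tested features 23 were called, which is 0.118%, and 6.31% had an unadjusted p under 0.05. The log2 fold changes of 7 of the 10 genes lay below 0, with a median of -0.13, where 47.4% of all features lay below 0 around a median of 0.01. DESeq2 and voom also called 0 of the 10 genes.

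The same genes varied strongly from dog to dog. The biological coefficient of variation, the spread between dogs that edgeR estimates after group and sex, was 0.500 for CHAD, 0.529 for COMP and 0.554 for CILP. The features of most similar mean level had medians of 0.161, 0.184 and 0.157, and 96.1%, 94.6% and 97.4% of them varied less than the gene in question. SOX9 (0.364 against 0.159) and RUNX2 (0.337 against 0.161) also stood high among their neighbours, while MGP (0.266 against 0.212) and SPP1 (0.255 against 0.170) were less far apart. ALPL, at 1.47 against 0.794, varied more than 93.4% of its neighbours, and CNMD (0.634 against 0.419) more than 84.1%. IBSP, at 1.13 against 1.30, varied less than most features with as few counts.

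Differences between the sexes were tested in the same model. None of the 10 genes was called, beside 28 features in all (0.143% of those tested). CILP had the smallest p (log2 fold change of males over females -0.52 ± 0.28, edgeR p = 0.075, adjusted p = 0.9997).

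The contrast between the groups was then set side by side in each sex. In males, SPP1 was at 104 to 230 CPM without heart failure (median 169) and at 97.2 to 148 CPM with it (median 131), a log2 fold change of -0.40 ± 0.15. In females the medians were 135 and 132 CPM, and the log2 fold change was 0.23 ± 0.17. Among females with heart failure, CAV1876 stood at 272 CPM and the next dog at 154 CPM. The log2 fold changes of COMP had the same signs as those of SPP1, though its female medians differed in the other direction. The COMP medians were 219 and 127 CPM in males (-0.88 ± 0.35) and 182 and 223 CPM in females (0.26 ± 0.38). CILP (females 0.44, males -0.61) and SOX9 (0.39 and -0.07) had the same signs, while RUNX2 (-0.32 and 0.26) and MGP (-0.06 and 0.08) had the reverse ones. In COMP, 6 of the 9 males with heart failure lay below the lowest value of males without it, 176 CPM. The contrasts within males did not pass, with p = 0.014 for SPP1 and 0.016 for COMP (edgeR, adjusted p = 0.9999 for both). Those within females did not pass either (edgeR adjusted p = 0.683 for SPP1 and 0.904 for COMP).

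The interaction of heart failure and sex was called for 0 of all features (0% of those tested, edgeR) and for 0 of the 10 genes. SPP1 (interaction -0.63 ± 0.23, p = 0.0085, adjusted p = 0.815) and COMP (-1.14 ± 0.51, p = 0.032, adjusted p = 0.817) had an unadjusted p under 0.05, as did 6.02% of all features. These values leaned on CAV1876, a female. Without it the interaction was -0.38 for SPP1 (p = 0.056) and -0.72 for COMP (p = 0.151), and that of CILP went from -1.05 to -0.12.

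The 10 genes did not vary as a single set over the dogs. After the means of the 4 groups formed by heart failure and sex were removed, Pearson correlations of log2(CPM + 1) were computed for the 45 pairs, with permutation within those groups. Together with 3 marker means there were 75 relations, over which p-values were adjusted. Of the pairs, 17 had an adjusted p under 0.1, 11 of them positive and 6 negative, and 16 also passed with Spearman's rho. As a background, the median absolute rho with 16171 features of at least 1 CPM was 0.2498 for CHAD, 0.181 for COMP and 0.334 for RUNX2.

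**Figure D3:**
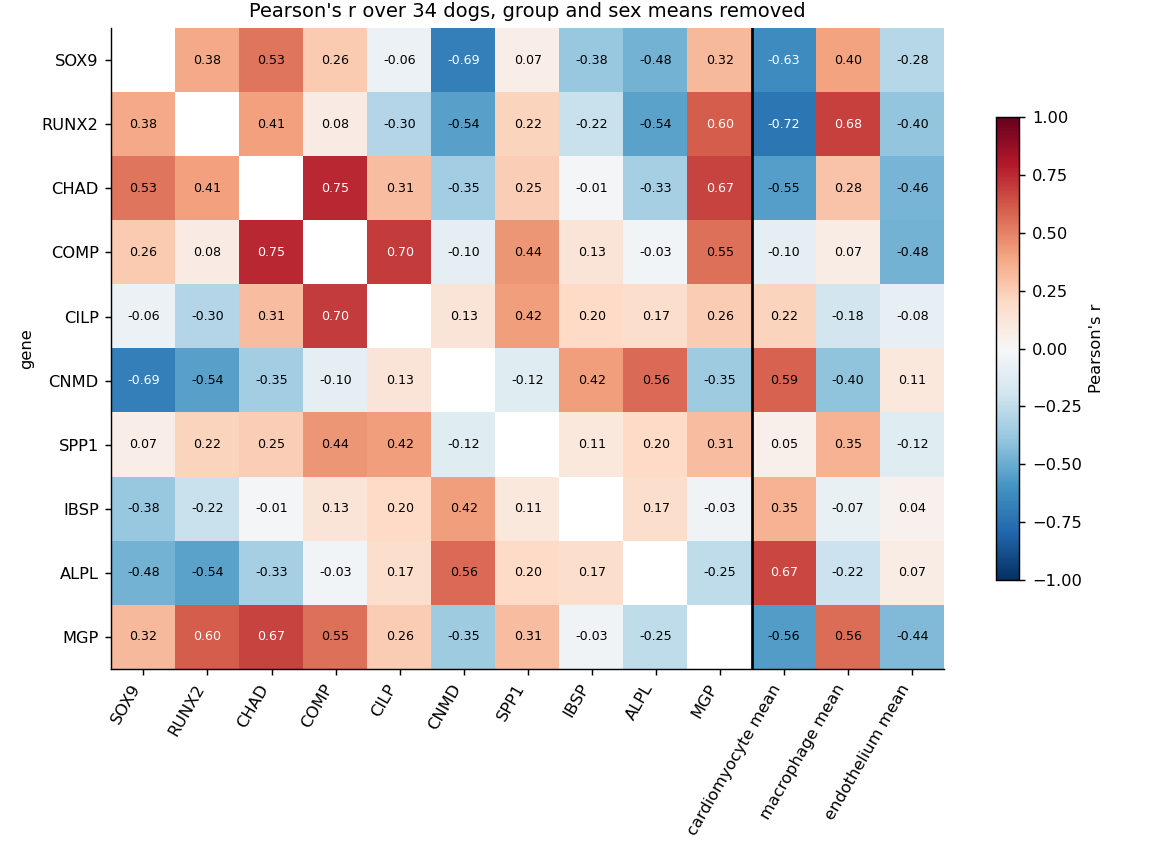
Pearson's r between the 10 genes, and of each with the mean of 3 marker lists (right of the line), over 34 dogs with group and sex means removed. CHAD, COMP, CILP and MGP share positive values (0.26 to 0.75), and ALPL and CNMD are negative with SOX9 and RUNX2.

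Among the matrix genes, COMP was correlated with both CHAD and CILP, while CHAD and CILP themselves did not pass (r = 0.306, rho = 0.312, permutation p = 0.070 and 0.087, adjusted p = 0.139 and 0.159). CHAD and COMP had r = 0.754 and rho = 0.721 (permutation p = 1e-05, the smallest that 100000 draws can give, and p = 2e-05, adjusted p = 0.000375 and 0.0005). The relation was present within the 10y-noCHF group (r = 0.866) and the 10y-MMVD-CHF group (r = 0.585), in females (r = 0.910) and in males (r = 0.578), and dropping the 2 most extreme dogs for CHAD left r at 0.745. COMP and CILP had r = 0.699 and rho = 0.617 (permutation p = 5e-05 and 0.00031, adjusted p = 0.000643 and 0.00291), and r = 0.607 without the 2 farthest dogs. Leaving out CAV444 and CAV1876, the 2 dogs with the most COMP, gave r = 0.733 for CHAD with COMP and r = 0.637 for COMP with CILP.

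MGP was correlated with CHAD and COMP but not past the threshold with CILP (r = 0.255, rho = 0.216, permutation p = 0.186 and 0.246, adjusted p = 0.303 and 0.369). Its r with CHAD was 0.674 and rho 0.701 (permutation p = 6e-05 and 4e-05, adjusted p = 0.000643 and 0.00075), with r = 0.695 without the 2 farthest dogs. With COMP, r was 0.550 and rho 0.564 (permutation p = 0.0031 and 0.0017, adjusted p = 0.013 and 0.0085). In the 10y-noCHF group MGP and COMP had r = 0.747 and in the 10y-MMVD-CHF group r = 0.223, a difference that was not tested. SPP1 had r = 0.439 with COMP (rho = 0.425, permutation p = 0.014 and 0.017, adjusted p = 0.046 and 0.055). This r was 0.405 without CAV1049 and CAV1876, the 2 most extreme dogs for SPP1. Without CAV1876 and CAV444 it was 0.222 (adjusted permutation p = 0.353).

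SOX9 and RUNX2 shared less with each other, at r = 0.378 and rho = 0.367 (permutation p = 0.028 and 0.034, adjusted p = 0.078 and 0.092). SOX9 was correlated with CHAD (r = 0.534, rho = 0.522, permutation p = 0.0013 and 0.0020, adjusted p = 0.0066 and 0.0089). This r was 0.809 in the 10y-noCHF group and 0.233 in the 10y-MMVD-CHF group, a difference that was not tested. RUNX2 had r = 0.605 with MGP (rho = 0.564, permutation p = 0.0008 and 0.0018, adjusted p = 0.0050 and 0.0085).

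ALPL and CNMD ran the other way. These genes had r = 0.565 with each other (rho = 0.551, permutation p = 0.00034 and 0.0014, adjusted p = 0.0028 and 0.0080). CNMD was low where SOX9 was high (r = -0.687, rho = -0.636, permutation p = 3e-05 and 0.00019, adjusted p = 0.000562 and 0.0020), and ALPL was low where RUNX2 was high (r = -0.537, rho = -0.544, permutation p = 0.0014 and 0.0017, adjusted p = 0.0066 and 0.0085). IBSP, with its few counts, had r = 0.419 with CNMD (rho = 0.466, permutation p = 0.023 and 0.011, adjusted p = 0.070 and 0.037). With the 2 most extreme dogs of the first gene dropped, all 17 pairs kept their sign, and the largest fall in absolute r was 0.101, for CHAD with CNMD (r = -0.349 and -0.248).

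The cardiomyocyte markers moved with 6 of the 10 genes. With the cardiomyocyte marker mean, r was 0.667 for ALPL (rho = 0.770) and 0.591 for CNMD (rho = 0.582), and it was -0.720 for RUNX2 (rho = -0.731), -0.626 for SOX9 (rho = -0.641), -0.560 for MGP (rho = -0.571) and -0.551 for CHAD (rho = -0.583). All 6 had adjusted permutation p-values of 0.00656 or less for r. For CNMD r was 0.854 in the 10y-MMVD-CHF group and 0.363 in the 10y-noCHF group. For CHAD it was -0.227 in females and -0.819 in males. These differences were not tested. COMP (r = -0.097), CILP (r = 0.222), SPP1 (r = 0.048) and IBSP (r = 0.349) did not pass. Over all 16171 features, r with this mean was above 0.5 for 15.5% and below -0.5 for 12.5%. As residuals on the cardiomyocyte mean, 6 of the 17 pairs kept an adjusted p under 0.1. CHAD and COMP then had r = 0.844, COMP and CILP 0.743, MGP and COMP 0.601, CHAD and MGP 0.529 and SOX9 and CNMD -0.504. SPP1 and COMP, the last of these 6 pairs, had 0.447 (adjusted permutation p = 0.080). CHAD and CILP, not past the threshold before, had r = 0.526 as residuals (adjusted permutation p = 0.025). MGP and CILP, likewise not past it before, had 0.470 (adjusted permutation p = 0.080). RUNX2 and ALPL had -0.109, ALPL and CNMD 0.284, and SOX9 and RUNX2 turned from 0.378 to -0.134 (adjusted p = 0.749). SOX9 and CHAD had 0.290 (adjusted permutation p = 0.262), and RUNX2 and MGP had 0.351 (adjusted permutation p = 0.210).

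Macrophage and endothelial markers moved with some of the genes. RUNX2 had r = 0.685 with the macrophage mean (rho = 0.658, permutation p = 6e-05 and 0.00012, adjusted p = 0.000643 and 0.0018), and MGP had r = 0.562 (rho = 0.545, permutation p = 0.0021 and 0.0023, adjusted p = 0.0090 and 0.0094). The relation of RUNX2 with this mean was 0.593 as residuals on the cardiomyocyte mean. Before that step, RUNX2 had r = 0.816 in the 10y-noCHF group and 0.409 in the 10y-MMVD-CHF group. MGP had r = 0.761 with the macrophage mean in females and 0.196 in males. These differences were not tested. COMP (r = -0.476), CHAD (r = -0.463) and MGP (r = -0.440) were lower where the endothelial mean was higher, with adjusted permutation p = 0.018, 0.036 and 0.030. For COMP and CHAD r was negative in both groups. For MGP it was -0.694 in the 10y-noCHF group and 0.045 in the 10y-MMVD-CHF group, a difference that was not tested. The macrophage mean also passed with SOX9 (r = 0.402, rho = 0.370, adjusted permutation p = 0.067 and 0.093) and, by r alone, with CNMD (r = -0.402, rho = -0.324, adjusted permutation p = 0.081 and 0.151), and the endothelial mean, by r alone, with RUNX2 (r = -0.397, rho = -0.289, adjusted permutation p = 0.078 and 0.210). Dropping the 2 most extreme dogs of the marker mean left r at -0.222 for CNMD, at -0.202 for RUNX2 with the endothelial mean and at -0.319 for MGP with it. The part of these cells in the levels of the 10 genes was not tested.

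**Figure D4:**
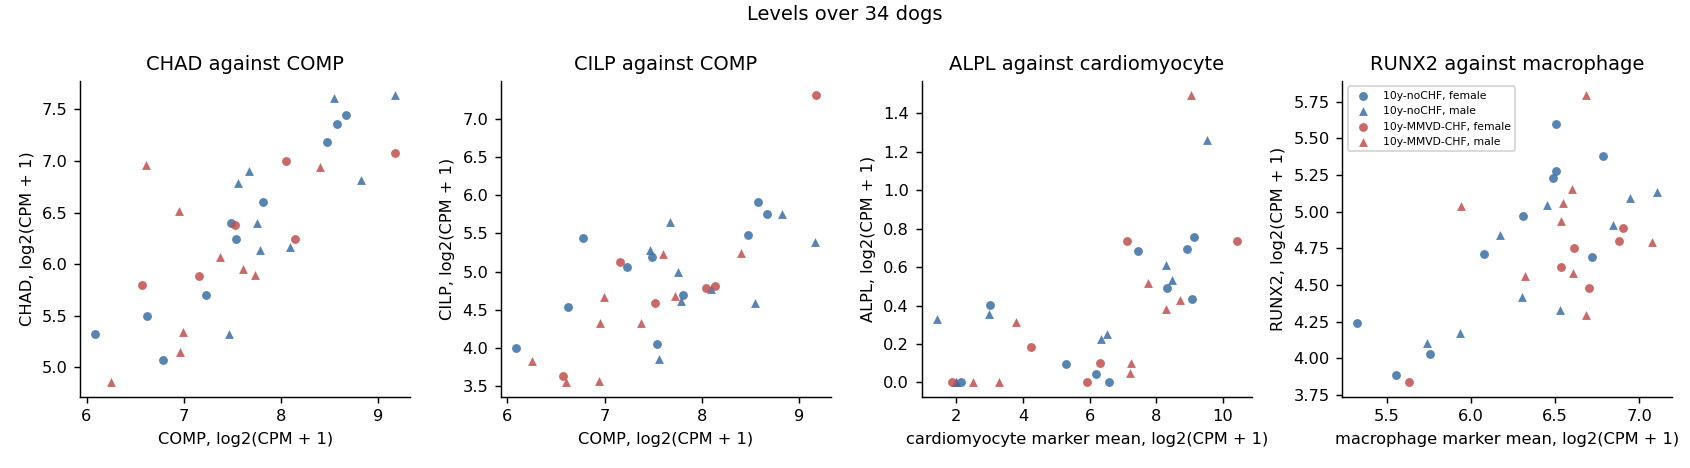
Levels over the 34 dogs on the log2(CPM + 1) scale, coloured by group and shaped by sex: CHAD and CILP against COMP, ALPL against the cardiomyocyte marker mean, and RUNX2 against the macrophage marker mean. Dogs of both groups are mixed along each relation.

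The features whose rank order over the dogs was most like that of a gene differed from gene to gene. They were picked as the highest over 16171 features, and their rho was not tested. For SOX9 they were LTBP4, a binding protein of latent TGF-beta (Spearman's rho over 34 dogs 0.901), ATF7 (0.889) and CDKN1B (0.883). For RUNX2 they were TNFAIP8L2 (0.855) and TRPM2 (0.855), both known from leukocytes, and RUNX1, the blood cell member of its own family (0.829). CHAD was closest to SMO, the signal transducer of the hedgehog pathway (0.883), NUCB1 (0.857) and TMEM119 (0.854), which promotes osteoblast differentiation. COMP was closest to CILP2, a relative of CILP (0.779), SIX2 (0.754) and MEOX1 (0.751), and CILP to EPHB2 (0.707), MMP3 (0.629) and PAPLN (0.626).

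ALPL was closest to SLC48A1 (0.841), MYOZ2, a protein of the muscle Z-disc (0.827), and P2RY2 (0.824). CNMD was closest to SPATA24 (0.781), GMPS (0.781) and TFRC, the transferrin receptor (0.778). MGP was closest to ARSA (0.789), GPR137 (0.783) and SLC38A7 (0.777), and SPP1 to CASP14 (0.752), OR1G1 (0.745) and FGF9 (0.734). IBSP had no partner above 0.545 (ST13), followed by POR (0.541) and RHOH (0.533).

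Other genes of the same programmes were read from 8 lists of 79 genes, of which 73 reached 100 counts; DLX6, MEPE, AHSG, OCSTAMP, CALCR and IHH did not. None of the 73 rose or fell at an adjusted p under 0.1 (edgeR, 0.118% of all features), and 45 had a log2 fold change below 0, with a median of -0.06. At an unadjusted p under 0.05 there were 8 genes (10.96% of the lists, 6.31% of all features), 6 lower and 2 higher with heart failure.

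Among 21 cartilage matrix genes, 4 had such a p. CYTL1, a cytokine-like protein of chondrocytes, had a median of 13.4 CPM in the 10y-noCHF group and 32.3 CPM in the 10y-MMVD-CHF group (log2 fold change 1.01 ± 0.32, edgeR adjusted p = 0.446). UCMA, a Gla protein of cartilage, had medians of 0.677 and 0.908 CPM (1.04 ± 0.40, adjusted p = 0.625). COL27A1, a fibrillar collagen of cartilage, had medians of 37.3 and 24.3 CPM (-0.57 ± 0.17, adjusted p = 0.398), and MATN1 reached at most 0.445 CPM in any dog (-1.86 ± 0.69, adjusted p = 0.607). The ranges of the groups overlapped for each of them. The list's median was -0.07.

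Of 11 mineral regulators with enough counts, ENPP1, which makes the mineralization inhibitor pyrophosphate, had medians of 49.1 and 41.4 CPM (-0.32 ± 0.10, edgeR adjusted p = 0.398). NT5E, which produces adenosine and whose loss in people leads to arterial calcification, had medians of 126 and 99.8 CPM (-0.37 ± 0.15, adjusted p = 0.662). Of 12 osteogenic transcription factors only DLX5 had an unadjusted p under 0.05, with medians of 0.851 and 0.390 CPM (-1.13 ± 0.40, adjusted p = 0.556), and of 5 growth plate signals only PTHLH did, with medians of 6.91 and 3.82 CPM (-0.64 ± 0.29, adjusted p = 0.760).

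The other 4 lists held no gene with such a p. The 6 chondrogenic transcription factors lay between -0.53 (BARX1) and 0.11 (TRPS1), the 5 skeletal leucine-rich proteoglycans between -0.29 (OGN) and 0.17 (OMD), the 7 bone matrix genes between -0.52 (IFITM5) and 0.28 (DSPP), and the 6 genes of the RANKL system and of osteoclasts between -1.24 (TNFSF11) and 0.30 (DCSTAMP).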

How the data were processed

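RNA of 34 mitral valves was analysed. The authors mapped 150-base read pairs with STAR to canFam4 (UU_Cfam_GSD_1.0) and deposited raw counts from featureCounts 2.0.3, run without strand, with reads given to each overlapping feature and mates counted separately; the STAR version is not given in the sources used here. The table pairs 2165 canine RefSeq features (exons) with 21603 human RefSeq features mapped to the dog genome (whole gene ranges, introns included). 1 column of counts belongs to no sample and was not used. The RefSeq gene table of this build held 9 of the 10 symbols.

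Features with at least 100 counts in all were TMM-scaled and tested with edgeR 4.0.16 (quasi-likelihood, sex and heart failure as terms, Benjamini-Hochberg threshold 0.1). Standard errors were derived from log2 fold change and F. DESeq2, limma voom, other scalings and filters, marker means as covariates and leaving out dogs were alternatives, and the code was tested on simulated data. Correlations used 100000 permutations. Replicates were separate dogs. Genes and lists were chosen with earlier results of these data known. Named were all 10 genes, each list gene with an unadjusted p under 0.05 (otherwise the extremes of the list) and the 3 features most like each gene in rank order. No batch was labelled. The level of 3 counts given for IBSP covers counting error only. The 95% intervals of the log2 fold changes come from the edgeR fit and include the spread between dogs.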

Additional observations from a re-analysis of the deposited data

Results flagged for a closer look

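Each of the 10 genes was screened in each of the 4 groups of sex and heart failure for a dog far from the others (Dixon's gap over range). Of 40 such groups 3 stood out, and chance alone gives about 2. All 3 concern the genes with the fewest counts, and all are males. IBSP reached 0.261 CPM in CAV648 of the 10y-MMVD-CHF group, where the next of the 9 males had 0.071 CPM. ALPL reached 1.82 CPM in CAV373 of the same group (next dog 0.429 CPM) and 1.40 CPM in CAV865 of the 10y-noCHF males (next dog 0.527 CPM).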

How the results depend on the processing

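The count of 0 of the 10 genes called for heart failure was the same under every alternative run; one of these, filterByExpr, left IBSP untested. The number of features called, 23, was 64 with DESeq2, 13 without the sex term, 35 with the macrophage mean as a covariate, 9 at a threshold of 0.05, and 8 to 28 when single dogs were left out; the cause was not tested. For the interaction DESeq2 called 3 features where edgeR called 0. Signs turned for values near 0: RUNX2 was -0.018 with voom, -0.00919 with upper-quartile scaling, -0.105 with the macrophage mean and -0.022 without CAV1047 and CAV614, SOX9 was -0.00831 and MGP -0.069 with the macrophage mean, and the interaction of IBSP was -0.015 with DESeq2. Leaving out single dogs, the log2 fold change ranged from -0.086 to 0.072 for RUNX2, from -0.66 to 0.19 for ALPL and from -0.039 to 0.065 for MGP, and the other 7 genes kept their sign. SOX9 and RUNX2 had r = -0.134 as residuals on the cardiomyocyte mean. Of the 31 correlations with an adjusted p under 0.1 (the 6 with the cardiomyocyte mean itself aside), another 13 kept their sign but had an adjusted p above that threshold there, as did 7 on ranks of CPM, 6 without CAV1047 and CAV614, 4 without CAV1876 and CAV444 and 0 with a pseudocount of 0.25 CPM. The low counts of IBSP and ALPL limit what could be seen. Leaving out CAV1876 (interaction, correlations) and CAV444 (correlations) was chosen after seeing the data. No paired analysis was possible because the replicate numbers only name dogs.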

Other observations

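Over the dogs, with group and sex means removed, the 20 cartilage matrix genes of at least 1 CPM went mostly with SOX9. Their rho with SOX9 had a median of 0.398 over 34 dogs, against 0.034 over 16171 features, and 18 of the 20 lay above 0. Other lists did so too: the median rho with SOX9 was 0.594 for the 8 valve interstitial cell markers, 0.343 for the 10 macrophage markers and 0.339 for the 5 smooth muscle markers. COL9A2, a chain of the collagen IX that coats cartilage fibrils, was highest at 0.718, and EPYC, a small proteoglycan of growth cartilage, was lowest at -0.439. With CHAD the 4 bone matrix genes of at least 1 CPM had a median rho of 0.726 and a range from 0.246 (BGLAP, osteocalcin) to 0.800 (COL1A2). The median with CHAD was 0.603 for the valve interstitial cell markers. ALPL ran the other way, with 1 of the 20 cartilage matrix genes above 0 and a median of -0.347 (all features -0.061; valve interstitial cell markers -0.303).

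Among the 9 mineral regulators of at least 1 CPM, MGP was closest to VKORC1, the enzyme that recycles the vitamin K needed to carboxylate MGP, at a rho of 0.731, and CHAD was closest to the same gene at 0.793. ALPL was closest to PHEX, a peptidase of bone cells that regulates phosphate, at 0.727. These values are descriptions, without a test; the points share libraries and the cardiomyocyte mean described above.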
